A study of Homo sapiens with 6 samples.

Results

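Keratins are the intermediate filament proteins of epithelial cells. The 55 members described here are the protein-coding genes whose GENCODE symbol is KRT followed by a number and an optional letter, out of 58884 genes in the deposited table. They comprised 29 type I genes, which encode the acidic chains, and 26 type II genes, which encode the neutral to basic chains. By position they comprised 28 genes on chromosome 17 and 27 on chromosome 12, because KRT18, a type I gene, lies beside KRT8 at the end of the type II cluster. Gene symbols, types and positions came from the GENCODE annotation placed on GRCh37, on which the chromosome 17 genes lie between 38810917 and 39781094 and the chromosome 12 genes between 52562780 and 53346690.

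A keratin filament is built from type I and type II chains that pair with each other, and a chain without a partner is usually degraded. Simple epithelia such as the lining of the colon use KRT8 with KRT18, KRT19 and KRT20. Stratified epithelia use KRT5 with KRT14 or KRT15 in the basal layer, KRT1 with KRT10 in the upper layers, and KRT6 with KRT16 and KRT17 in appendages and wounded skin. The remaining genes encode chains of the inner root sheath of the hair follicle and of the hair shaft. Desmosomes and hemidesmosomes anchor the filaments at the cell surface through proteins of the plakin family.

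The RNA came from parental DLD1 cells, which are colorectal cancer cells with a helical domain mutation of *PIK3CA*, and from DLD1 cells in which the K477A and R478A changes had been knocked into both copies of the gene for p85β, a regulatory subunit of PI3K. The latter are called p85β KR-AA cells, or KR-AA cells for short, and there were 3 libraries per condition. The comparison asks how gene expression differs when these residues, which lie in a sequence that the study examined as a nuclear localization signal, are replaced. The knock-in cells of the study were independently derived clones, and the labels do not say which clone each library came from, so that p-values measure only the spread between these libraries. The titles and genotypes of all 3 p85β KR-AA libraries give K477A/R478A, whereas another label of replicates 2 and 3 reads K477A/R479A and K477A/R480A.

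The libraries held between 20301396 and 26712816 estimated counts. TMM, which scales each library so that most genes are centered between libraries, gave scaling factors of 0.677 to 0.777 in parental and 1.35 to 1.41 in KR-AA libraries. CPM values below are counts per 1000000 counts of the TMM-scaled library and are used to compare conditions. TPM values are counts divided by the deposited gene length and scaled to a sum of 1000000 per library, and are used to compare genes with each other. Detection required more than 3 counts in a library, and 3 counts were worth 0.185 to 0.218 CPM in parental libraries and 0.0818 to 0.109 CPM in KR-AA libraries, a limit that covers counting error only. Among 12 colon epithelial markers, of which 4 are keratins, 10 had at least 1 CPM in all 6 libraries, *CEACAM5* missing it in parental and *LGALS4* in KR-AA libraries. Their summed level, 57900 to 80000 CPM in parental and 9030 to 10600 CPM in KR-AA libraries, consisted mostly of the keratins. The 8 other markers summed to 1490 to 1600 and 855 to 903 CPM, and under TMM 4 of them fell and 3 rose (*CDH1*, *CDH17* and *CEACAM5*, with log2 fold changes of 1.82, 2.1 and 5.66). Of all genes tested 17.6% fell and 28.6% rose. *CEACAM5* passed the filter on low counts only through the KR-AA libraries. Among 12 mesenchymal markers, 3 had at least 1 CPM in every parental library and 8 in every p85β KR-AA library, and their summed level went from 7.65 to 10.6 CPM in parental to 6320 to 7230 CPM in KR-AA libraries. *VIM*, the intermediate filament gene of mesenchymal cells, had 0.803 ± 0.182 CPM in parental and 1772 ± 70.1 CPM in KR-AA libraries (SD, n = 3 each), and *FN1* had 4.28 ± 0.624 and 4992 ± 408 CPM. The mesenchymal markers *COL1A2*, *THY1*, *SPARC* and *TWIST1* had at most 0.370 CPM in any library. In each condition 2 of 6 neuronal, 1 of 6 blood and 2 of 6 hepatocyte markers had at least 1 CPM in every library, and *NEFL*, a neuronal intermediate filament gene named after its values were seen, had no parental count and 131.5 ± 1.97 CPM in KR-AA libraries (SD, n = 3). The part of these markers in the results below was not tested, and in such bulk samples fewer cells of a type and less RNA per cell cannot be told apart.

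Most of the keratin transcripts that could be tested were lower in p85β KR-AA cells. Of the 55 genes, 22 passed the filter on low counts and were tested, and 19 of them fell by at least 3-fold at an adjusted p under 0.01 (edgeR quasi-likelihood test with Benjamini-Hochberg adjustment over 16059 genes), while none rose. With DESeq2 20 fell (19.3% of all genes), with library totals in place of TMM 14 (6.06%) and with offsets per library for length and GC 10 (6.55%), and none rose under any of these. No keratin gene had a higher level at an unadjusted p under 0.05 with either edgeR or DESeq2 (0 genes each). Among all genes tested, 17.6% fell and 28.6% rose, with 46.2% called in either direction. The 3 tested keratins outside the call were KRT15, KRT6A and KRT20. The median log2 fold change of the 22 keratins was -2.79, against 0.32 over all genes tested. Library totals moved the median of all genes upward by 0.92. Relative to the median gene, the keratin median was -3.11 with TMM, -3.10 with library totals and -1.61 with length and GC offsets. All 22 keratins were below the median gene under these scalings. For 6 of the 22, named below, the filter fixed the direction, and these 6 also enter the keratin medians.

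The tested keratins are between 1390 and 3873 bases long with a GC content of 45.8% to 62.3%. Within these ranges of length and GC content 4440 genes were tested, of which 24.1% fell and 12.2% rose, with a median log2 fold change of -0.57. Under the length and GC offsets 6.55% of all genes fell. Of the 22 keratins, 16 passed the filter's count limit in each condition taken alone and 6 passed it only through the parental libraries, so that those 6 could only have been tested if they were higher there. The 6 were KRT5, KRT9, KRT14, KRT17, KRT34 and KRT83. The filter thus fixed the direction of their change, and the adjusted p-values given for them below are no separate support for it. The same holds for the calls of KRT9, KRT17, KRT34 and KRT83 with library totals and with offsets, and of KRT14 with library totals. Of the keratins past the count limit in each condition, KRT7, KRT8, KRT10, KRT13, KRT32 and KRT71 were called with both. KRT18, KRT19 and KRT86 were called with library totals but not with the offsets. Of the 16, 13 fell, and among all genes past that limit in all 6 libraries 20.1% did. The 3 parental values lay above the 3 p85β KR-AA values for 21 of the 22 keratins, KRT20 being the exception. This held for 36.5% of all genes tested. Without the filter 24 of 46 keratins fell (10.4% of all genes). At an adjusted p under 0.01 with no fold threshold 21 keratins fell (32.7% of all genes), and at an adjusted p under 0.05 also 21 fell (35.7%) and none rose, while 45.9% of all genes did.

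**Figure D1:**
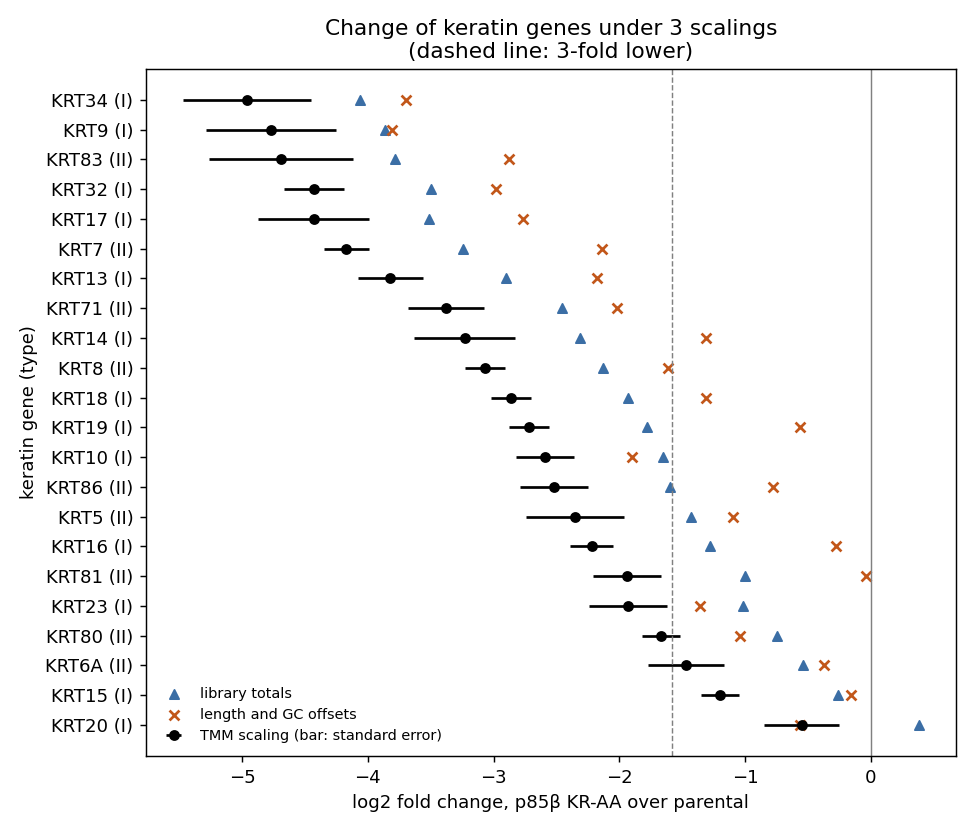
Log2 fold change of the 22 tested keratin genes in p85β KR-AA over parental cells, with 3 scalings; circles show the TMM values with their standard error, triangles the values with library totals and crosses those with length and GC offsets, and the dashed line marks a level 3-fold lower. TMM values ran from -4.96 (KRT34) to -0.55 (KRT20), and KRT20 was at 0.38 with library totals, the single value above 0. KRT34 is among the genes that passed the filter only through the parental libraries.

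Promoter sequence was read for the members that the RefSeq table holds (GRCh38.p14, 250 bases before to 50 after each start), which were 34 of the 55, among them 8 of the 22 tested. The sequences are shown because the members moved together while differing in class. Each is the 100 bases before the start, 5′ to 3′ on the gene's minus strand, and capitals mark TATAAA or ATAAAA, which share letters where they overlap.
KRT10, chr17:40822615-40822714: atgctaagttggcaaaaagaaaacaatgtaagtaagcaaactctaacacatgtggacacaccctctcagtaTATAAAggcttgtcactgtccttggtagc
KRT71, chr12:52553146-52553245: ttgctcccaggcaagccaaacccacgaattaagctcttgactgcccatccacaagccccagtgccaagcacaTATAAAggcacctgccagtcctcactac
KRT34, chr17:41382307-41382406: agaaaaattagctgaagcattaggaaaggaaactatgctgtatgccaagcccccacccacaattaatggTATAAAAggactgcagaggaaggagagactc
KRT32, chr17:41467387-41467486: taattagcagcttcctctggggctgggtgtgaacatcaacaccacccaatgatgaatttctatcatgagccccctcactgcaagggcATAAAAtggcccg
KRT9, chr17:41572060-41572159: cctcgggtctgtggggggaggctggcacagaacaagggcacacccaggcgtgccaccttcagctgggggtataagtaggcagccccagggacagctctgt
KRT20, chr17:40885243-40885342: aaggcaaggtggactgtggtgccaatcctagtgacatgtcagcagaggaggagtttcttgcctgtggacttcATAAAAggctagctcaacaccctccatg
The first 5 belong to genes that fell and the last to KRT20, which was not called. KRT5 and KRT8, which fell, also have windows but are not printed, and that of KRT8 lies at its outermost annotated start. In the 250 bases before the start KRT5 held ATAAAA without TATAAA, and KRT8 held neither. In KRT10, KRT71 and KRT20 the capitals begin 29, 28 and 28 bases before the start, in KRT34 they begin 31 bases before it, and in KRT32 they begin 13 bases before it. The 100 bases of KRT9 hold neither motif. On both strands of the 250 bases before each start, TATAAA, the core of the TATA box, was found in 21 of the 34 keratin genes (61.8%) and in 10.7% of all 35116 windows. ATAAAA was found in 23 (67.6%) and in 14.8% of all windows, and CCAAT in 16 (47.1%) and in 32.0%. GGGCGG, the GC box bound by SP1, was found in 4 (11.8%) and in 42.6% of all windows. TGANTCA, the letters bound by AP-1, was in none of the 34 (0.0%) and in 6.57% of all windows. Among the 8 tested genes with a window, 3 held TATAAA and 5 held ATAAAA, with 1 or more matches counted once, and most genes holding these letters were keratins that were not tested.

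The simple epithelial keratins made up nearly all keratin RNA. Under TMM 4 of these 5 genes fell (17.6% of all genes), and the 4 also fell with library totals (6.06%). With length and GC offsets (6.55%) KRT7 and KRT8 kept the call, and KRT18 and KRT19 lost it. KRT8, the type II partner of KRT18, had 36910, 44010 and 31230 CPM in parental replicates 1 to 3. It had 4282, 4151 and 4930 CPM in p85β KR-AA replicates 1 to 3. The groups were far apart, and the parental libraries differed more among themselves than the p85β KR-AA libraries did. The log2 fold change of KRT8 was -3.07 (SE 0.16, edgeR adjusted p = 7.5e-09), an 8.39-fold lower level. KRT8 had more counts than any other gene in all 3 parental libraries and ranked 5 or 6 in KR-AA libraries. It remained among the most abundant transcripts of these cells.

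KRT18, the type I partner of KRT8, had 18820, 20980 and 15530 CPM in parental and 2387, 2382 and 2841 CPM in KR-AA libraries. The order of the libraries was that of KRT8, with parental replicate 2 highest and parental replicate 3 lowest of its group. Its log2 fold change was -2.86 (SE 0.16, edgeR adjusted p = 8.16e-09), and its rank by counts went from 4 to between 16 and 20. KRT8 and KRT18 lie on opposite strands of chromosome 12 and their annotated spans overlap on GRCh37 (53290971 to 53343738 and 53342655 to 53346690). Both had fractional counts in all 6 libraries, which is how RSEM divides reads that match more than 1 gene. Annotated pseudogenes of KRT8 (51 genes) held 0.094% to 0.17% of the KRT8 counts, and those of KRT18 (67 genes) 0.022% to 0.06% of the KRT18 counts.

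KRT19, a type I chain of simple epithelia without a tail domain, had 11220, 13500 and 9619 CPM in parental and 1681, 1640 and 1897 CPM in KR-AA libraries. It fell by 2.72 on the log2 scale (SE 0.16, edgeR adjusted p = 1.07e-08), and its rank went from between 8 and 10 to between 27 and 30. With length and GC offsets KRT8 stayed past the fold threshold at -1.61, whereas KRT18 was at -1.31 and KRT19 at -0.56, both short of it. KRT7, a type II chain of ductal and glandular epithelia, had 174.2, 236.6 and 159.4 CPM in parental and 10.2, 9.78 and 11.6 CPM in KR-AA libraries. KRT7 had a log2 fold change of -4.17 (SE 0.18, edgeR adjusted p = 2.55e-09), 18.1-fold lower and a larger fall than those of the other 3 that were called. KRT7 was at -3.24 with library totals and at -2.14 with length and GC offsets. Its span overlaps that of KRT86 on the same strand and that of the antisense gene KRT7-AS. KRT7-AS held means of 18.2 and 11.6 unscaled counts per library in parental and KR-AA cells.

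KRT20, the type I keratin of differentiated colonic and gastric surface cells, was low in every library. It had 2.26, 3.93 and 3.52 CPM in parental and 2.54, 1.497 and 2.59 CPM in KR-AA libraries, and the groups overlapped. The log2 fold change was -0.55 (SE 0.30, edgeR adjusted p = 0.11), and with library totals it was 0.38, the reverse direction. Per length KRT20 reached 1.84 ± 0.457 TPM in parental and 3.28 ± 0.844 TPM in KR-AA libraries (SD, n = 3 each), against 21850 ± 1572 and 6841 ± 477.7 TPM for KRT8.

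**Figure D2:**
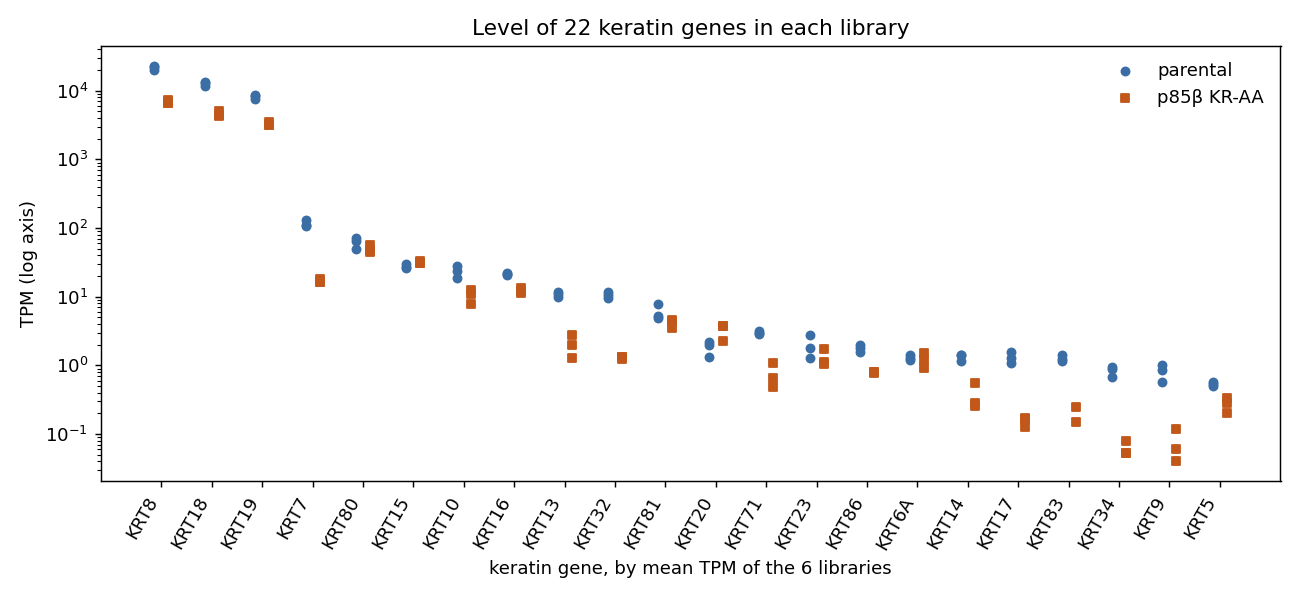
TPM on a log axis of the 22 tested keratin genes in each library, ordered by the mean of the 6 libraries; blue circles are the 3 parental and orange squares the 3 p85β KR-AA libraries. KRT8, KRT18 and KRT19 sit at 3121 TPM or more in every library and no other keratin exceeds 129 TPM; KRT83 had no count in p85β KR-AA replicate 1, a point that a log axis cannot show.

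Because filaments need type I and type II chains, the 2 sums were compared per length. The type I genes summed to 21860, 21810 and 19480 TPM in parental and to 7524, 7705 and 8575 TPM in KR-AA libraries. The type II genes summed to 22520, 23310 and 20270 TPM in parental and to 6622, 6650 and 7475 TPM in KR-AA libraries. Per length, the type II sum was thus the larger in each parental library and the type I sum the larger in each p85β KR-AA library. The ratio of type I to type II was 0.971, 0.935 and 0.961 in parental and 1.14, 1.16 and 1.15 in KR-AA libraries, with means of 0.956 ± 0.0182 and 1.15 ± 0.0113 (SD, n = 3 each). The groups did not overlap, and the exact permutation test gave p = 0.1 (two-sided), the smallest value that 3 against 3 libraries allow. This ratio does not depend on the scaling of the libraries, but which sum was the larger depends on the division by gene length. In counts the ratio was 0.797 ± 0.0146 in parental and 0.952 ± 0.00970 in KR-AA libraries (SD, n = 3 each), so that type II counts were the larger in all 6 libraries.

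The change in balance came with different shares of the 3 abundant genes. KRT8 made up 50.7% ± 0.485 of keratin TPM in parental and 46.1% ± 0.224 in KR-AA libraries (SD, n = 3 each). KRT18 went from 29.8% ± 0.734 to 31.2% ± 0.439, and KRT19 from 18.8% ± 0.261 to 21.9% ± 0.300. KRT8 per KRT18 was 1.65, 1.77 and 1.69 in parental and 1.51, 1.47 and 1.46 in KR-AA libraries (exact permutation p = 0.1, two-sided). Together the 3 genes held 99.3% and 99.1% of keratin TPM.

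All keratins together took 4.90%, 5.36% and 4.43% of the counts in parental libraries and 1.17%, 1.17% and 1.33% in KR-AA libraries. The fold by which the sum was lower depended on the scale. It was 2.90-fold in TPM (43090 ± 2912 against 14850 ± 1044), 4.01-fold as a share of counts and 7.66-fold in TMM-scaled CPM (SD, n = 3 each). The exact permutation p was 0.1 (two-sided) on each scale, the smallest possible. By type the sums were 2.65-fold (type I) and 3.19-fold (type II) lower in TPM. Adding the counts of annotated pseudogenes left the fold at 2.90.

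**Figure D3:**
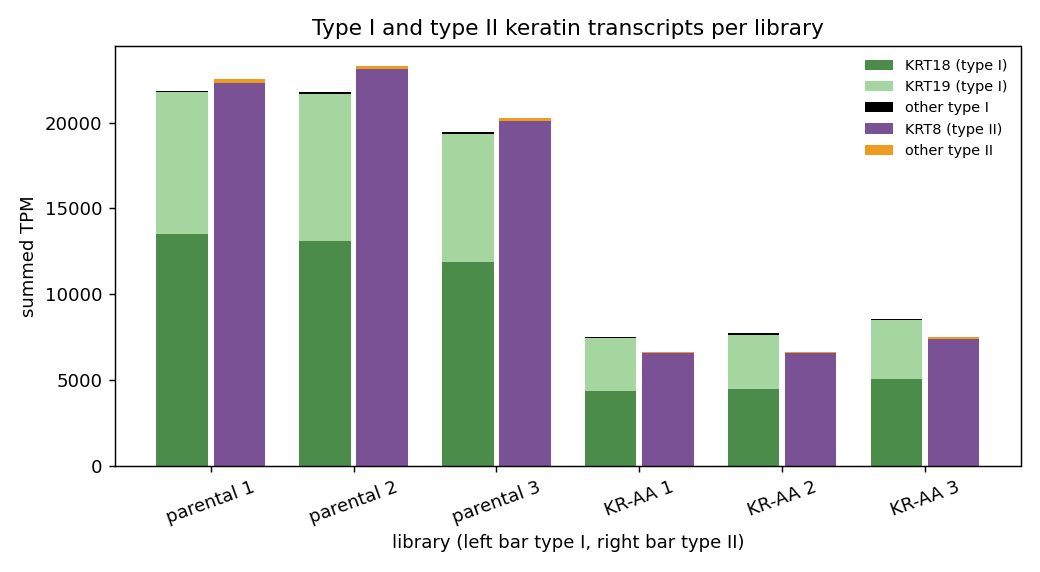
Summed TPM of type I (left bar) and type II (right bar) keratin genes in each library, stacked by gene; bars start at 0. In parental libraries the type II bar is the taller and in KR-AA libraries the type I bar is, with ratios of type I to type II of 0.935 to 0.971 and 1.14 to 1.16.

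By type, 11 of 13 tested type I genes fell (median log2 fold change -2.86) and 8 of 9 tested type II genes fell (-2.52), and none of either type rose. Of those past the filter's count limit in each condition, 7 of 9 type I and 6 of 7 type II genes fell. The share of all genes that fell was 17.6%, and it was 20.1% past that limit. By chromosome 9 of 10 tested genes fell on chromosome 12 and 10 of 12 on chromosome 17, and past that limit 7 of 8 and 6 of 8. These are counts under TMM, and a difference between the types was not tested.

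Among the 6 other epithelial keratins, the 2 that were tested fell under TMM (17.6% of all genes). Neither was called with library totals or with length and GC offsets. KRT80, a type II chain found near cell junctions, had 267.9, 214.5 and 233.3 CPM in parental and 72.8, 65.8 and 86.3 CPM in KR-AA libraries. No library of KRT80 crossed into the other group. Its log2 fold change was -1.67 (SE 0.15, edgeR adjusted p = 2.92e-07), close to the threshold of 3-fold (1.585 on the log2 scale), and it was -0.75 with library totals and -1.04 with length and GC offsets. Without p85β KR-AA replicate 2 the value was -1.58, short of the threshold. KRT80 per KRT7 in TPM was 0.645, 0.380 and 0.614 in parental and 2.99, 2.82 and 3.14 in KR-AA libraries, such that KRT7 was the higher of the pair in parental cells and KRT80 in p85β KR-AA cells (exact permutation p = 0.1, two-sided). KRT23, a type I chain, had 52, 40 and 82 counts in parental and 32, 37 and 23 counts in KR-AA libraries. It fell by 1.93 on the log2 scale under TMM. With library totals it was at -1.02 and with length and GC offsets at -1.36, and it was called with neither.

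Of the 18 stratified epithelial keratins, 9 were tested and 7 fell under TMM (17.6% of all genes). The filter's count limit was passed in each condition by 5 of the 9, of which 3 fell (20.1% of all genes past it). The keratins of the upper layers and of internal squamous epithelia were KRT10 and KRT13. KRT10 had 39.7, 67.7 and 47.3 CPM in parental and 10.3, 8.81 and 6.60 CPM in KR-AA libraries, with a log2 fold change of -2.59 (SE 0.23, edgeR adjusted p = 3.39e-07). It stayed past the threshold with library totals (-1.65) and with length and GC offsets (-1.90). Its antisense neighbour KRT10-AS1 held means of 276 and 280 unscaled counts per library. A count is worth fewer CPM in KR-AA than in parental libraries, so that these means do not show an unchanged level. KRT13 had 19.99, 19.4 and 17.3 CPM in parental and 1.31, 0.836 and 1.86 CPM in KR-AA libraries, a 14.2-fold lower level (log2 fold change -3.82, SE 0.26, edgeR adjusted p = 3.81e-08). It was at -2.9 with library totals and at -2.18 with length and GC offsets. KRT1 and KRT4, the usual type II partners of KRT10 and KRT13, were not detected in either condition.

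The basal keratins were scarce except for KRT15. KRT15, a type I chain of basal cells, had 63.0, 80.5 and 58.5 CPM in parental and 29.1, 29.7 and 29.3 CPM in KR-AA libraries. Its log2 fold change of -1.20 (SE 0.15, edgeR adjusted p = 9.09e-06) did not reach 3-fold, and with library totals it was -0.26. Per length it was 27.7 ± 1.82 TPM in parental and 31.8 ± 1.16 TPM in KR-AA libraries (SD, n = 3 each), the other direction. Relative to KRT18, KRT15 was at 0.00217 ± 0.000158 in parental and 0.00691 ± 0.000693 in KR-AA libraries in TPM (exact permutation p = 0.1, two-sided). KRT5, the type II partner of KRT14 and KRT15, had 18, 20 and 17 counts in parental and 9, 8 and 5 in KR-AA libraries, and fell by 2.35 on the log2 scale under TMM (SE 0.39), with -1.43 under library totals, where it was not called. KRT14 had 34, 36 and 28 counts in parental and 6, 5 and 10 in KR-AA libraries, a log2 fold change of -3.23 (SE 0.40, edgeR adjusted p = 8.37e-06); with length and GC offsets it was -1.31 and not called.

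The keratins of wounded and appendage epithelium differed in size of change. KRT16 had 35.4, 41.2 and 32.1 CPM in parental and 7.23, 7.42 and 8.78 CPM in KR-AA libraries, a log2 fold change of -2.22 under TMM (SE 0.17, edgeR adjusted p = 1.06e-07), with -1.28 under library totals and -0.28 under length and GC offsets. KRT17 had 31, 40 and 27 counts in parental and 3 in each p85β KR-AA library, all at the limit of 3 counts and so not counted as detected. The ratio of its pooled, TMM-scaled counts was 22.5, with a 95% exact interval of 11.4 to 50.6 for counting error only. Its call held under each scaling, but KRT17 passed the filter only through the parental libraries, which fixed the direction. KRT6A, the type II chain of this group, had 44, 51 and 41 counts in parental and 50, 23 and 30 in KR-AA libraries, with a log2 fold change of -1.47 (SE 0.30, edgeR adjusted p = 0.000544) that did not reach 3-fold. KRT6A passed the threshold without parental replicate 3 (-1.63), in the fit without p85β KR-AA replicate 1 (-1.67) and in DESeq2 (-1.60). KRT14, KRT16 and KRT17, and likewise KRT6A, KRT6B and KRT6C, are highly similar copies of each other, so that the division of reads among them is uncertain. Annotated pseudogenes of KRT17 held 3.2% to 130% of its counts and those of KRT16 at most 7.5%.

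KRT9, the type I keratin of palm and sole epidermis, was found at low counts. It had 29, 36 and 20 counts in parental and 2, 1 and 3 counts in KR-AA libraries, all of the latter at or under the limit of 3 counts. The ratio of pooled, TMM-scaled counts was 29.2 (95% exact interval 12.9 to 81.9), and the fitted log2 fold change was -4.77 (SE 0.52, edgeR adjusted p = 2.32e-06). Its promoter, printed above, lacks both motifs in the 100 bases before the start.

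Keratins of the hair follicle were also measured in this colorectal line. Of 9 sheath keratins only KRT71 was tested. KRT71, a type II chain of the inner root sheath, had 100, 100 and 107 counts in parental and 21, 12 and 27 counts in KR-AA libraries. The parental libraries were nearly equal, and the log2 fold change was -3.38 (SE 0.30, edgeR adjusted p = 3.53e-07), with -2.46 under library totals and -2.02 under length and GC offsets. KRT25, KRT26, KRT27 and KRT28, type I chains of the same sheath, had at most 2 counts in any library.

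Of 17 hair shaft keratins 5 were tested, and all 5 fell under TMM, 4 with library totals and 3 with length and GC offsets. The shares of all genes that fell under these scalings were 17.6%, 6.06% and 6.55%. The filter's count limit was passed in each condition by 3 of the 5, KRT32, KRT81 and KRT86, and these 3 fell under TMM. Of them KRT32 and KRT86 were called with library totals, and KRT32 alone with the offsets. KRT34 and KRT83 were called under each scaling but passed the filter only through the parental libraries, which fixed their direction. KRT32, a type I chain of the hair cuticle, had 271, 317 and 254 counts in parental and 33, 23 and 25 counts in KR-AA libraries. It was the most abundant hair shaft keratin in parental cells at 10.6 ± 0.994 TPM (SD, n = 3) and fell 21.6-fold (log2 fold change -4.43, SE 0.24, edgeR adjusted p = 7.73e-09). KRT32 was at -3.5 with library totals and at -2.98 with length and GC offsets. KRT34, a type I chain of the hair cortex, had 23, 26 and 18 counts in parental and 2, 1 and 1 counts in KR-AA libraries. The ratio of its pooled, TMM-scaled counts was 34.5 (95% exact interval 12.9 to 130), and its fitted log2 fold change was -4.96 (SE 0.51, edgeR adjusted p = 1.44e-06).

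The 3 tested type II hair keratins lie next to each other on chromosome 12 and are highly similar copies, so that their separate values are uncertain. KRT83 had 34, 41 and 32 counts in parental and 0, 3 and 5 counts in KR-AA libraries (log2 fold change -4.69, SE 0.57, edgeR adjusted p = 6.52e-06). KRT86 had 61, 51 and 56 counts in parental and 24, 18 and 18 in KR-AA libraries, a log2 fold change of -2.52 (SE 0.27) that was -0.78 and not called with length and GC offsets. KRT81 had 151, 231 and 143 counts in parental and 126, 74 and 89 in KR-AA libraries. Its log2 fold change was -1.94 under TMM, -1.0 with library totals, where it was not called, and -0.04 with length and GC offsets. KRT86 overlaps KRT81 on the other strand and KRT7 on its own strand. The hair shaft keratins together summed to 22.3 ± 2.94 TPM in parental and 6.97 ± 0.858 TPM in KR-AA libraries (SD, n = 3 each). Of the 94 genes for keratin-associated proteins, the matrix of the hair shaft, 4 were detected in each condition, and the highest count in any library was 199.9, for KRTAP2-3.

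Detection, set at more than 3 counts in at least 2 of the 3 libraries of a condition, gave 28 keratins in parental cells (17 type I and 11 type II) and 20 in p85β KR-AA cells (11 type I and 9 type II). They shared 18, a further 10 were detected in parental cells alone and 2 in p85β KR-AA cells alone, and 25 in neither. The 10 were KRT9, KRT17, KRT34 and KRT83, described above, and KRT2, KRT31, KRT33B, KRT36, KRT37 and KRT78. The count needed was worth less CPM in p85β KR-AA than in parental libraries, as given above. The 2 were KRT38, with 8, 3 and 0 counts in parental and 4, 2 and 8 in KR-AA libraries, and KRT3, with 0, 2 and 3 against 11, 4 and 2. For both the groups overlapped, and the counting intervals of their pooled ratios of parental to p85β KR-AA, 0.666 to 3.84 for KRT38 and 0.175 to 1.71 for KRT3, held 1. With at least 1 CPM in every library 22 keratins were kept in parental and 10 in p85β KR-AA cells. With any count 42 and 38 were kept, and 9 keratins had no count in any library.

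The hair shaft genes that were detected but not tested had few counts. KRT31, a type I chain of the hair cortex next to KRT34, had 26, 20 and 8 counts in parental libraries and 1, 0 and 0 in KR-AA libraries, a pooled ratio of 111 with a 95% exact interval of 19.2 to 4480. KRT36 had 7, 11 and 13 against 9, 2 and 3 counts, a ratio of 4.57 (2.36 to 9.29). KRT37 had 2, 12 and 4 against 4, 0 and 3 counts, a ratio of 5.30 (2.11 to 15.0). For both the unscaled counts overlapped between conditions and the TMM-scaled values did not. KRT33B had 1, 5 and 4 counts in parental libraries and none in KR-AA libraries. KRT2, an epidermal type II chain, had 4, 3 and 4 counts in parental libraries and none in KR-AA libraries. No fold is given for KRT33B and KRT2, whose parental counts were themselves near the limit of 3. KRT78 had 3, 4 and 8 against 0, 0 and 1 counts, a ratio of 30.9 (4.76 to 1300). These intervals cover counting error only. The edgeR fit without the filter, which uses the spread between replicates, called KRT31 (log2 fold change -6.21), KRT36 (-2.14) and KRT78 (-4.31), and also KRT2 and KRT33B. KRT37 was not called in that fit (-2.32, edgeR adjusted p = 0.022). In that fit 10.4% of all genes fell. These genes were picked because they were detected in parental cells alone, on the same counts. Their ratios and calls are therefore no separate support for the direction.

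Named without values because they were detected in neither condition are KRT24, KRT79 and KRT222 of the other epithelial keratins. The stratified epithelial genes KRT1, KRT4, KRT6B, KRT6C, KRT12, KRT76 and KRT77 were likewise not detected. The same held for the sheath genes KRT25, KRT26, KRT27, KRT28, KRT72, KRT73, KRT74 and KRT75, and for the hair shaft genes KRT33A, KRT35, KRT39, KRT40, KRT82, KRT84 and KRT85. KRT222 shares its span with another protein-coding gene on the same strand.

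**Figure D4:**
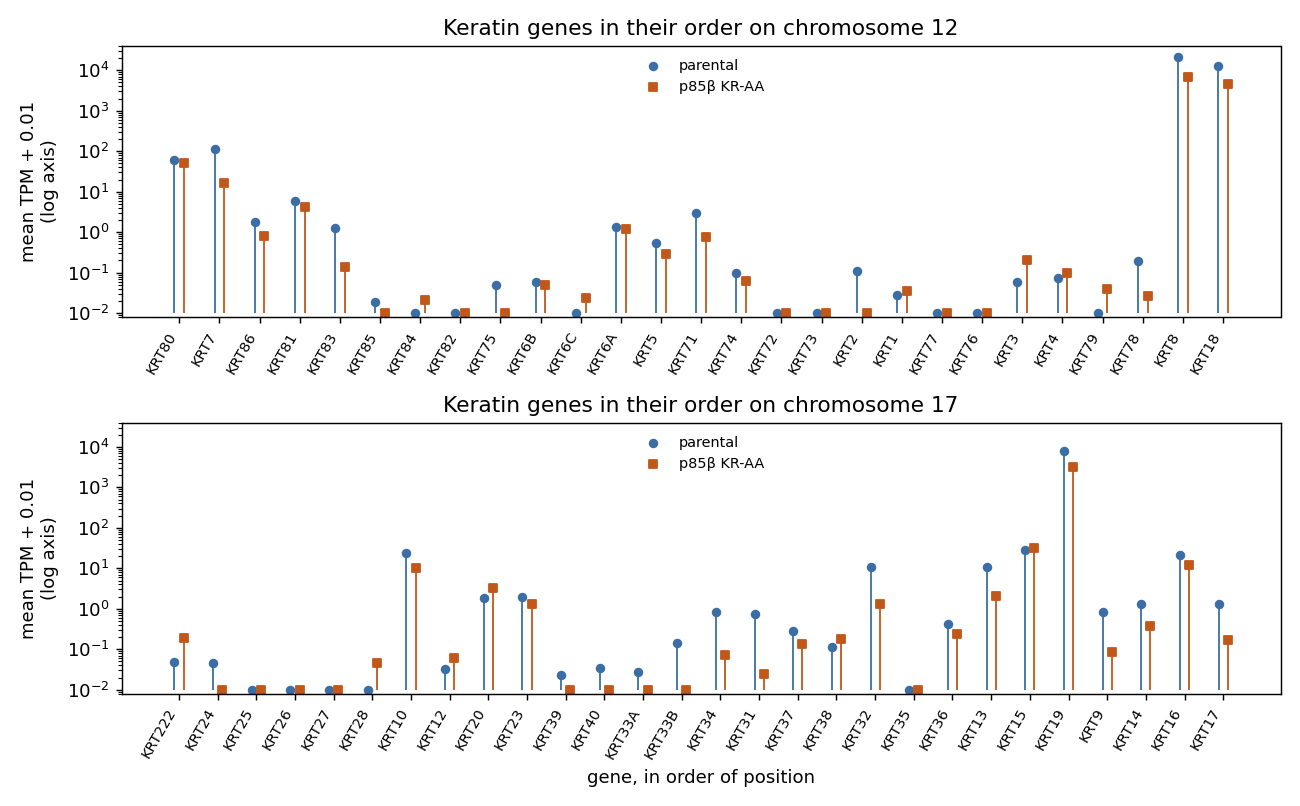
Mean TPM plus 0.01 on a log axis of all 55 keratin genes in their order along chromosome 12 (27 genes) and chromosome 17 (28 genes), with blue circles for parental and orange squares for p85β KR-AA cells (means of 3 libraries each). KRT8 and KRT18 stand side by side at the right end of chromosome 12 and KRT19 toward the right of chromosome 17, between genes at low levels. On this scale 12 genes are higher in p85β KR-AA cells, of which KRT15 and KRT20 were tested, and the others have at most 0.191 TPM in either condition.

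Along both clusters abundant and silent genes stood next to each other. KRT19, at 8117 ± 558 TPM in parental libraries (SD, n = 3), lies between KRT15 at 27.7 ± 1.82 TPM and KRT9 at 0.817 ± 0.217 TPM. KRT8, at 21850 ± 1572 TPM, lies between KRT78 at 0.187 ± 0.1002 TPM and KRT18 at 12830 ± 862 TPM. Genes that fell were found in both clusters next to genes that were not detected, and KRT20, not called, lies between KRT12 and KRT23. The chromosome 17 genes summed to 8221 ± 562 TPM in parental and 3307 ± 181 TPM in KR-AA libraries, and the chromosome 12 genes to 34860 ± 2367 and 11540 ± 863 TPM. Their ratio went from 0.236 ± 0.00420 to 0.287 ± 0.00554 (SD, n = 3 each; exact permutation p = 0.1, two-sided).

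Among genes that anchor or organise keratin filaments, some rose and some fell under TMM, and most of these calls depended on the scaling. The 3 tested desmosomal cadherins of 7, which join neighbouring cells, rose under TMM (28.6% of all genes). *DSG2* had 20.7 ± 2.12 and 151.9 ± 20.7 CPM (SD, n = 3 each) and a log2 fold change of 2.88 (SE 0.15, edgeR adjusted p = 7.54e-09), *DSC2* had 2.33 and *DSC3* 1.78. *DSC3* had 11, 5 and 9 counts in parental and 91, 48 and 43 in KR-AA libraries. It passed the filter only through the latter, so that it could only have been tested if it was higher there. The calls held with library totals, whereas with length and GC offsets none was called and the values were 0.94, -0.49 and -0.59, reversed for *DSC2* and *DSC3*. Of 10 plakins and desmosomal plaque genes, which tie filaments to membranes, 3 rose and 1 fell under TMM (28.6% and 17.6% of all genes), with a median of -0.53 against 0.32 over all genes. With length and GC offsets 1 rose, *DST*, and none fell. *PKP3*, a plaque protein of the desmosome, fell from 918.8 ± 118.6 to 131.2 ± 8.03 CPM (log2 fold change -2.81, SE 0.14, edgeR adjusted p = 5.96e-09), and was at -1.03 and not called with the offsets. *JUP* (-0.51) and *PLEC* (-1.13), plakoglobin and plectin, were not called, and *JUP* was at 0.41 with library totals and 0.80 with the offsets. The 3 that rose were desmoplakin, *DSP* (2.39), the hemidesmosomal plakin *DST* (5.30) and *PKP2* (1.71), named after their values were seen, with 0.66, 2.33 and 0.78 under the offsets.

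Of 4 genes that organise keratin bundles, 3 were tested. *FAM83H*, which recruits a kinase to keratin filaments, fell by 1.60 on the log2 scale under TMM and was not called with library totals or with length and GC offsets. *TCHH*, trichohyalin of the inner root sheath, rose with 0.182 ± 0.107 CPM in parental and 1.41 ± 0.449 CPM in KR-AA libraries (log2 fold change 2.94), and *TCHP* (0.97) was not called. *TCHH* had 4, 3 and 1 counts in parental libraries and passed the filter only through the KR-AA libraries. Of 16 epithelial transcription factors 13 were tested, of which 2 rose and 3 fell under TMM (28.6% and 17.6% of all genes), with a median of 0.61. *CDX2*, the intestinal homeobox factor, fell from 346.7 ± 22.2 to 87.98 ± 5.19 CPM (log2 fold change -1.98), but was short of 3-fold with library totals (-1.06) and with length and GC offsets (-1.14). *EHF* rose (2.46), and *ELF3* (-0.51) was not called and was at 0.42 with library totals and 0.31 with the offsets. The others called were *OVOL1* (-2.48), *OVOL2* (-2.60) and *TFAP2A* (3.49), named after their values were seen. *OVOL1* and *OVOL2* were at -1.38 and -0.93 with the offsets, and *OVOL1* was short of 3-fold with library totals (-1.56). With library totals 6 of these factors rose and 1 fell, against 43.9% and 6.06% of all genes, and with the offsets 3 rose and none fell, against 17.8% and 6.55%. *TP63*, the master regulator of basal keratins, had at most 1 count in a library.

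Of 10 cornified envelope genes 3 were tested, and 2 fell under TMM (17.6% of all genes) but not with library totals or with length and GC offsets. *SFN*, an adaptor protein that binds keratins KRT18 and KRT17, fell from 1407 ± 164 to 257.3 ± 17.7 CPM (log2 fold change -2.45), and *TGM1*, the cross-linking enzyme of the envelope, fell by 2.11. *CSTA*, a further member, had at most 13 counts in a library and was not tested. Of the 6 markers of squamous keratinocytes, KRT5 and KRT14 alone had at least 1 CPM in every parental library, and none had in KR-AA libraries. Their summed level was 3.64 to 4.51 CPM in parental and 0.692 to 0.818 CPM in KR-AA libraries.

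**Figure D5:**
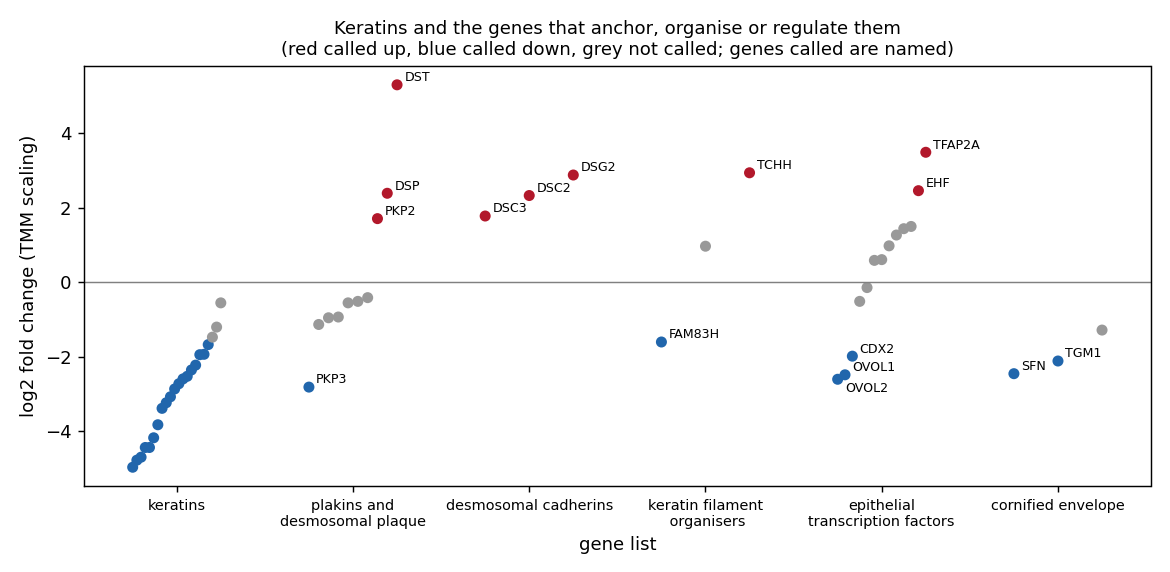
Log2 fold change (p85β KR-AA over parental, TMM scaling) of the 22 tested keratins and of the tested members of 5 gene lists, 1 point per gene; red points were called up, blue down and grey not called. The keratins lie at or below -0.55, and the desmosomal cadherins at 1.78 to 2.88. With library totals KRT20 moves above 0. The genes losing their calls with library totals are KRT5, KRT16, KRT23, KRT80, KRT81, *FAM83H*, *SFN*, *TGM1*, *CDX2* and *OVOL1*. With length and GC offsets all 3 cadherins are among the genes that lose their calls, *DSC2* (-0.49) and *DSC3* (-0.59) turning below 0.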

How the data were processed

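RNA-seq libraries of DLD1 parental and p85β KR-AA cells (n = 3 each) were analysed. The authors deposited estimated counts (expected counts, not normalized) per Ensembl gene with a gene length. The study's methods give paired-end reads, SeqPrep and Sickle trimming, and calls at 3-fold and adjusted p under 0.01. The submitters' processing notes name HISAT2 2.1.0, RSEM 1.3.1, DESeq2 1.24.0 and hg18. Counts were rounded, because the design had assumed whole counts. edgeR 4.0.16 was run in R 4.3.3 (filterByExpr with minimum count 10 and total 15, TMM, quasi-likelihood F test, Benjamini-Hochberg adjustment over all genes tested) and checked on simulated data. TPM were computed from counts and deposited lengths. Alternatives were DESeq2 1.42.0, library totals, other filters and thresholds, a replicate block, length and GC offsets, and each library left out. Symbols came from GENCODE 44 on GRCh37, matched for 56745 of 58884 gene IDs. No exact test of 3 against 3 libraries can go below 0.1. Chi-square per degree of freedom between replicates was 4.08 to 35.8, above sampling noise.

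Members and lists were chosen with earlier results of these data known. Full statistics are given for the 10 keratins with the highest mean TPM and the 10 called keratins with the largest fold change. Of each list, the 3 members with the highest mean TPM are named, and called members where at most 3 were called.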

Additional observations from a re-analysis of the deposited data

How the results depend on the processing

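The count of keratins that fell was 19, and it was 12 with at least 10 counts in every library (16 keratins tested), 10 with length and GC offsets, and between 14 and 24 under the other settings tried; none rose in any. Leaving out each library gave 19 to 22 falling keratins and 0 rising. KRT20 turned to 0.38 with library totals. Of 280 comparisons of a single keratin with a setting, 260 kept direction and call, 16 lost the call, 3 gained it and 1 reversed; the cause was not tested. Over all genes, 4597 rose and 2825 fell. Library totals gave 7052 and 973, at least 10 counts 2898 rising, offsets 2832 and 1041, adjusted p under 0.05 without a fold 7373 and 5738, adjusted p under 0.01 without a fold 5246 falling, and a test against a fold of 3 gave 2974 and 1779; leaving out a library gave 4404 to 4783 and 2774 to 2992. The share rising among calls was 61.9%, 87.9% with library totals and 73.1% with offsets. Detection gave 38 keratins in p85β KR-AA cells with any count and 10 with at least 1 CPM in every library; leaving out a library gave 24 to 27 (parental) and 18 to 19. The log2 change of the summed level, -1.54 in TPM, was -2.00 in CPM of library totals and, on TMM CPM added after seeing the data, -2.94 (type I -2.80, type II -3.06). Leaving out a library gave -1.60 to -1.50 for all, -1.47 to -1.37 for type I, -1.73 to -1.63 for type II, and 0.25 to 0.28 for the log2 change of the type ratio. With library totals the organisers had 2 up and 0 down, the transcription factors 6 up and 1 down and the cornified envelope 0 down; with adjusted p under 0.05 and no fold, plakins had 6 down, organisers 2 up and transcription factors 8 up. With length and GC offsets, added for these lists after seeing the data, plakins had 1 up and 0 down, desmosomal cadherins 0 up, and organisers, transcription factors and the cornified envelope 0 down.

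Same-numbered libraries did not deviate together (correlations -0.136, 0.119 and -0.0447), so the numbers do not pair them. With the replicate block 19 keratins fell and 0 rose, no keratin moved by over 0.05 on the log2 scale, and no call of a keratin changed. The prior degrees of freedom were infinite with the block, against 8.32 without it. With 3 libraries a condition, differences in the scarce keratins that were not tested were not detectable or rest on counting intervals and the fit without the filter. The scarce KRT9, KRT17, KRT34 and KRT83 were called in the main fit, which they entered only through the parental libraries. Their calls with library totals and with length and GC offsets carry the same limit.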
